A study of Mus musculus with 12 samples.

Results

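The genes described here are 32 mouse genes of cholesterol metabolism: 18 enzymes of cholesterol synthesis, 6 regulators of sterol supply (Srebf2, Scap, Insig1, Insig2, Nr1h2 and Nr1h3), 5 genes of uptake and intracellular handling (Lrp1, Npc1, Npc2, Stard4 and Soat1) and 3 genes of efflux (Abca1, Abcg1 and Apoe). They were taken by symbol from a table of 52459 gene symbols, and the list does not hold every gene of the pathway. All 32 were found and all 32 passed the filter on low values. The table profiles choroid plexus, the tissue of the brain ventricles that secretes cerebrospinal fluid, dissected from B6 mice at 4 ages: E12.5 (an embryonic day), the day of birth (P0), postnatal day 14 (P14) and 6 months (A6m). Each age has 3 libraries, every animal carries the B6 background with no allele or treatment named, and the labels give neither the sex of the animals nor whether specimens were pooled. Total RNA went into an mRNA library kit and was sequenced as 100 bp paired ends. The deposited values are TPM, a share of all transcripts in a library that takes transcript length into account, so levels of different genes may be set side by side.

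Cholesterol is built from acetyl-CoA through mevalonate and isoprenoid diphosphates to squalene, which is closed to lanosterol and trimmed to cholesterol. When sterols run low, the membrane-bound factor encoded by Srebf2 is escorted by SCAP to the Golgi, cleaved, and turns on genes of synthesis and uptake, while INSIG proteins hold SCAP back when sterols are plentiful. The liver X receptors encoded by Nr1h2 and Nr1h3 respond to oxysterols and turn on genes of efflux. The brain makes its own cholesterol, because lipoproteins of the blood do not cross its barriers, and in cerebrospinal fluid the sterol travels on particles that carry apolipoprotein E.

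The summed TPM of each library is fixed, and most genes had lower deposited values at later ages. Over the 17422 genes tested, the median difference of log2(TPM + 1) was -0.27 between P0 and E12.5, -0.41 between P14 and P0, -0.04 between A6m and P14 and -0.71 between A6m and E12.5. Each comparison was therefore also made after the libraries were scaled by medians of ratios (written below as with scaling), and the 4 medians were then -0.02, 0.00, -0.00 and -0.01. Rose and fell refer to genes called at an adjusted p under 0.05 by limma on the deposited values. The scaled result is given wherever it differs, except that for cell type markers only scaled medians are described. The read depth behind the TPM values is unknown. Each adjusted p rests on the spread between libraries of the same age, pooled over the 4 ages. A library outside a comparison can therefore change its calls. The labels describe the 3 libraries per age only as 3 or 4 independent specimens per datapoint. E12.5 replicate 1 stood apart, with 16.5% of its TPM in 14 ribosomal RNA-associated and small-RNA features, while E12.5 replicates 2 and 3 had 2.47% and 3.32%. Xist, which marks the inactive X chromosome of female cells, ran from 148 to 155 TPM at A6m and was at most 0.808 TPM in the P14 and P0 libraries, while Y-linked Ddx3y was at 0.122 to 0.366 TPM at A6m and 80.1 to 117 TPM at P14 and P0. Age and sex therefore cannot be told apart between A6m and P14. E12.5 replicates 1 and 3 held both transcripts, with Xist at 139 and 89.5 TPM, while E12.5 replicate 2 had Xist at 0.389 TPM. The comparisons of P0 and of A6m with E12.5 were therefore not balanced in these transcripts either.

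The promoter windows of 5 genes are shown to give the sequence context of the results. Idi1, Cyp51 and Insig1 were taken from the synthesis and feedback genes that were higher at 6 months than at P14, Hmgcs1 from the early steps, and Abca1 from efflux. They need not represent their roles. Hmgcs1 changed least of the 18 enzymes (largest log2 difference 0.25 in size). Abca1, unlike Apoe and Abcg1, was lower at A6m than at E12.5 as deposited. Each window runs from 250 bases before to 50 bases after the start of the gene as RefSeq places it on GRCm38.p6, written 5′ to 3′ on the strand of the gene. Capitals mark matches on either strand to the CCAAT box (letters CCAAT, or ATTGG on the other strand) and to the sterol regulatory element (letters TCACNCCAC). Idi1 lies at chr13:8885356-8885655, plus strand, Cyp51 at chr5:4104648-4104947, minus strand, Insig1 at chr5:28071162-28071461, plus strand, Hmgcs1 at chr13:119690101-119690400, plus strand, and Abca1 at chr4:53159846-53160145, minus strand.
Idi1: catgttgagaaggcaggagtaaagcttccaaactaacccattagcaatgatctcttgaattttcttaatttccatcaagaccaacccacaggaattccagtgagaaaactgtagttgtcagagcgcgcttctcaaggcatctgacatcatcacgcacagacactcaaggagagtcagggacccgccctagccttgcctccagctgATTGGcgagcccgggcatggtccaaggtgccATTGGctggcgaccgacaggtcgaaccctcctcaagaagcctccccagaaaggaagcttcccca
Cyp51: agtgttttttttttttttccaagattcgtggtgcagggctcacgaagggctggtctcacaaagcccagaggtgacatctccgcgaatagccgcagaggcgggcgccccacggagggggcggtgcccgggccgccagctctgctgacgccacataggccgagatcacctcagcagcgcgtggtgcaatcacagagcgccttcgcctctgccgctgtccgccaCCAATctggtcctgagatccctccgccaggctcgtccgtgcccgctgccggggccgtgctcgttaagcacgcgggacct
Insig1: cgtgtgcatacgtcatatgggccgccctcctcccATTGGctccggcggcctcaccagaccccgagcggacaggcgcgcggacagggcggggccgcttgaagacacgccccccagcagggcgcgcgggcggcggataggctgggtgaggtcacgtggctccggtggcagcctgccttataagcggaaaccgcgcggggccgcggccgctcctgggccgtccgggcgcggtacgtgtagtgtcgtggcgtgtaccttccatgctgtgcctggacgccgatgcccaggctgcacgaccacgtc
Hmgcs1: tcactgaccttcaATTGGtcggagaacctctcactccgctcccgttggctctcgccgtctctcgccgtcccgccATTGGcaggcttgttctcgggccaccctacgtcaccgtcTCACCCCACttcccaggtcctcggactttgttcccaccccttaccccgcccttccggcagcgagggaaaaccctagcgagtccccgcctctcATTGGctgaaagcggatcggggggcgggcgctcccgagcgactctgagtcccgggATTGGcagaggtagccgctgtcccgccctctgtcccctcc
Abca1: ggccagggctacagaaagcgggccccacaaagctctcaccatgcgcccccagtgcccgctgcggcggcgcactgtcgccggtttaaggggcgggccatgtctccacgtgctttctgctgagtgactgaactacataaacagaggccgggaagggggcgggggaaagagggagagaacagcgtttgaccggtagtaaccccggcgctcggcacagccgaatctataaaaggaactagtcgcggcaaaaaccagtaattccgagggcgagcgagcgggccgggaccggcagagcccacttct

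A window was found for 26 of the 32 genes and for all but Fdps, Fdft1, Sqle, Npc1, Stard4 and Abcg1. The CCAAT box was matched in 14 of 15 synthesis genes (93.3%) and in 19 of the 26 genes (73.1%), against 41.1% of the 27025 genes with a window. Acat2 was the synthesis gene without a match, and Abca1 and Apoe, the efflux genes with a window, had none. The GC box GGGCGG was likewise matched in 14 of 15 synthesis genes, with Pmvk the exception, and in 22 of the 26 genes (84.6%), against 38.2% of all genes. The sterol regulatory element, in the form TCACNCCAC, was matched in Hmgcs1 alone, 137 bases before the start. That is 1 of the 26 genes (3.85%), against 1.44% of all genes. The E-box CACGTG was matched in 6 of the 26 genes (Abca1, Dhcr7, Hsd17b7, Insig1, Sc5d and Scap), against 8.09% of all genes. The DR4 repeat bound by liver X receptors (AGGTCA, any 4 letters, AGGTCA) was matched in 0 of the 26 genes and in 0.0148% of all genes. Both strands were searched, and 0 of the 97 matches in these windows overlapped a match of another motif. These matches describe the letters of the windows and do not show binding. Each motif was searched in 1 form only, so a window without a match may still hold another form of it.

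Between P0 and E12.5, 7 of the 32 genes rose and 21 fell, against 18.6% of all tested genes higher and 43.7% lower. With scaling 9 were higher and 12 lower, against backgrounds of 29% and 31%. Between P14 and P0, 4 rose and 12 fell (backgrounds 5.33% and 53.5%), and with scaling 17 were higher and 1 lower (22.7% and 19.8%). Between A6m and P14, 19 rose, against a background of 8.78%, and 21 were higher with scaling, against 15.2%. In that comparison limma called 0 of the 32 lower (background 12.1%), 1 was lower at an unadjusted p under 0.05, and 1 was called lower with scaling (14%), in each case Abca1. Between A6m and E12.5, 11 rose and 11 fell (backgrounds 15.2% and 62%), while with scaling 25 were higher and 3 lower (35.4% and 35.8%). The limma F-test over the 4 ages called all 32 genes as deposited and 31 with scaling, beside 85.1% and 79.8% of all genes.

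The median log2 difference of the 32 genes was -0.45, -0.13, 0.46 and -0.08 in these comparisons, in the same order, and -0.18, 0.35, 0.52 and 0.74 with scaling. Calls in the same direction on both scales numbered 19 between P0 and E12.5, 5 between P14 and P0, 19 between A6m and P14 and 14 between A6m and E12.5. Calls on both scales, in the same or in opposite directions, were not counted over all tested genes. Such counts for the 32 genes therefore have no background and do not show whether the set differs from other genes. A call turned to the opposite direction with scaling in 6 cases over 5 genes, which were Hmgcs1 and Fdft1 between P14 and P0, and Hmgcs1, Sqle, Cyp51 and Nr1h2 between A6m and E12.5. The comparisons share libraries and are not independent of each other. Leaving out E12.5 replicate 1 gave 6 genes higher and 20 lower at P0 than at E12.5, beside 16.6% and 48.5% of all tested genes. It gave 11 higher and 12 lower at A6m than at E12.5, beside 14% and 64.7%. Between A6m and P14, leaving out any 1 of the 12 libraries gave 15 to 21 genes higher, beside 5.97% to 11.3% of all tested genes.

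**Figure D1:**
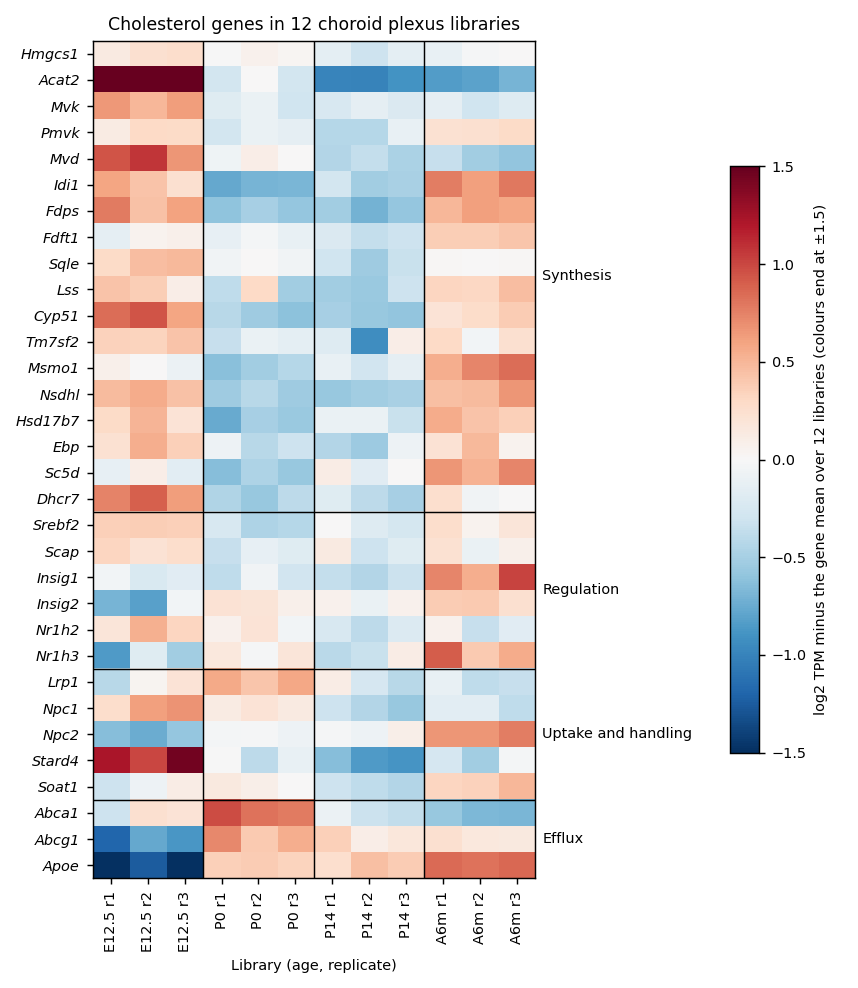
Heat map of log2 TPM minus the mean of each gene over the 12 libraries, with genes in rows by role and libraries in columns by age (r1 to r3 are replicates 1 to 3), colours ending at ±1.5. The synthesis rows are mostly red at E12.5, blue at P0 and P14 and red again at A6m. As deposited, Hmgcs1, Acat2, Mvk, Mvd, Sqle, Cyp51 and Dhcr7 were nonetheless called lower at A6m than at E12.5. So were Nr1h2, Npc1, Stard4 and Abca1 in the other roles, while Apoe and Npc2 are highest at A6m.

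Among the 18 synthesis enzymes, 17 fell by birth (10 with scaling, where 1, Fdft1, was higher), against 43.7% of all tested genes lower as deposited and 31% with scaling. At 6 months 13 were higher than at P14 (14 with scaling), against 8.78% of all tested genes higher as deposited and 15.2% with scaling. The summed TPM of the 18 was 567 ± 11.4 TPM at E12.5, 363.5 ± 11.3 TPM at P0, 343 ± 20.2 TPM at P14 and 519.8 ± 17.5 TPM at A6m (mean ± SD, n = 3 each). The libraries ran from 554 to 577 TPM at E12.5, 354 to 376 TPM at P0, 319.9 to 356 TPM at P14 and 504 to 539 TPM at A6m, so that E12.5 and A6m lay above P0 and P14 without overlap. With scaling the sum was 402 ± 56.6 scaled TPM at E12.5, 313 ± 5.99 scaled TPM at P0, 422 ± 9.40 scaled TPM at P14 and 664 ± 40.6 scaled TPM at A6m, so that P14 no longer lay below P0 and A6m exceeded E12.5. Of the 8 enzymes up to squalene, 7 fell at P0 (median log2 difference -0.75), and of the 10 from squalene to cholesterol, all 10 did (median -0.55). With scaling these counts were 5 and 5. At A6m, 4 of the 8 early enzymes and 9 of the 10 later ones were higher than at P14, with medians of 0.35 and 0.59, and with scaling 5 and 9. The difference between these shares was not tested.

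Acat2, which encodes the cytosolic thiolase that condenses acetyl-CoA at the entry of the pathway and is not the sterol acyltransferase of similar protein name, had the widest range (chr17:12942890-12960747, minus strand, GENCODE M21). It was at 51.1, 44.9 and 39.7 TPM at E12.5, 9.81, 11.9 and 9.82 TPM at P0, 5.97, 5.93 and 6.40 TPM at P14, and 6.64, 6.80 and 7.30 TPM at A6m. The 3 E12.5 libraries lay far above the other 9, and the groups did not overlap between P0 and E12.5 or between P14 and P0. Mean TPM was 4.30-fold lower at P0 than at E12.5 (log2 difference -2.003 ± 0.11, SE; adjusted p = 7.06e-08) and 1.73-fold lower at P14 than at P0 (adjusted p = 2.90e-04). The P14 call was lost with scaling (-0.24, adjusted p = 0.216), and A6m did not differ from P14 past the threshold (adjusted p = 0.349).

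Hmgcs1, which makes HMG-CoA in the following step, was the most abundant of the 18 enzymes at every age. It was at 127, 136 and 139.5 TPM at E12.5, 116, 122 and 118 TPM at P0, 105, 93.7 and 104 TPM at P14, and 107, 115 and 116 TPM at A6m. Each age lay apart from its neighbour in this series, but by little: the log2 difference was -0.18 ± 0.064 between P0 and E12.5, -0.23 ± 0.064 between P14 and P0 and 0.16 ± 0.064 between A6m and P14, and the first and second of these passed the test (0.0298, 0.0102 and 0.114 as adjusted p). With scaling Hmgcs1 was higher at P14 than at P0 (0.28, adjusted p = 0.00809), higher at A6m than at P14 (0.21, adjusted p = 0.0462) and higher at A6m than at E12.5 (0.60), against -0.25 as deposited, and its difference between P0 and E12.5 did not pass (0.10). The call between P0 and E12.5 was lost without E12.5 replicate 2 or 3, or P0 replicate 1 or 3 (log2 difference -0.18 to -0.15, adjusted p 0.0687 to 0.0887).

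Mevalonate becomes isopentenyl diphosphate through a pair of kinases, Mvk and Pmvk, and the decarboxylase Mvd. Mvd was at 10.4, 11.4 and 8.67 TPM at E12.5, 5.23, 5.84 and 5.47 TPM at P0, 4.01, 4.27 and 3.93 TPM at P14, and 4.31, 3.80 and 3.63 TPM at A6m. Its E12.5 libraries lay above all others, and its A6m libraries overlapped those of P14. It fell at P0 (-0.77 ± 0.11, adjusted p = 9.14e-05) and at P14 (-0.36 ± 0.11, adjusted p = 0.0147), stayed 2.60-fold lower at A6m than at E12.5 (adjusted p = 1.46e-06), and lost the P14 call with scaling (0.066) and without P0 replicate 2 (log2 difference -0.32, adjusted p = 0.0527). Mvk, mevalonate kinase, averaged 15.1 ± 0.828 TPM at E12.5, 8.79 ± 0.582 TPM at P0, 8.75 ± 0.355 TPM at P14 and 8.69 ± 0.476 TPM at A6m (SD, n = 3), and fell at P0 (adjusted p = 1.73e-05). Its deposited difference between P14 and P0 did not pass, while the scaled one did (0.46, adjusted p = 0.00369). Pmvk, phosphomevalonate kinase, averaged 19.2 ± 1.27 TPM at E12.5, 14.5 ± 0.937 TPM at P0, 13.1 ± 1.73 TPM at P14 and 19.4 ± 0.453 TPM at A6m, and was higher at A6m than at P14 (0.54 ± 0.095, adjusted p = 0.00226). The P14 and P0 libraries of Pmvk did not differ past the threshold (adjusted p = 0.221), but it was called lower without P14 replicate 3 (log2 difference -0.24, adjusted p = 0.0404).

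Idi1 and Fdps, which encode the isomerase of isopentenyl diphosphate and the synthase of farnesyl diphosphate, had the largest rises of the 18 between A6m and P14. Idi1 (chr13:8885501-8892451, plus strand) was at 33.1, 29.7 and 26.1 TPM at E12.5, 13.0, 13.6 and 13.7 TPM at P0, 18.1, 15.3 and 15.7 TPM at P14, and 37.6, 33.9 and 38.1 TPM at A6m. Every A6m library held more than any P14 library, and mean TPM was 2.23-fold higher (log2 difference 1.11 ± 0.10, adjusted p = 2.12e-05). At P0 it was 2.21-fold lower than at E12.5 (adjusted p = 3.16e-06). Its rise between P14 and P0 (0.26 ± 0.10, adjusted p = 0.0354) was lost without P0 replicate 1, 2 or 3, or P14 replicate 1 or 3 (log2 difference 0.19 to 0.29, adjusted p 0.0513 to 0.136), and its rise between A6m and E12.5 (0.30, adjusted p = 0.0152) was lost without E12.5 replicate 3, or A6m replicate 3 (log2 difference 0.21 to 0.27, adjusted p 0.0551 to 0.0588).

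Fdps (chr3:89093588-89101959, minus strand) was at 66.0, 52.1 and 58.6 TPM at E12.5, 25.3, 27.3 and 25.8 TPM at P0, 26.8, 23.6 and 25.8 TPM at P14, and 54.4, 58.9 and 57.7 TPM at A6m. The E12.5 and A6m libraries overlapped each other and lay above all P0 and P14 libraries. Mean TPM was 2.25-fold lower at P0 than at E12.5 (-1.14 ± 0.086, adjusted p = 9.54e-07) and 2.24-fold higher at A6m than at P14 (1.14 ± 0.086, adjusted p = 9.41e-06). Against E12.5 the deposited A6m values did not pass (-0.041), while the scaled ones were higher at A6m (0.80, adjusted p = 2.05e-04).

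Fdft1, squalene synthase, was the enzyme among the 18 that was not called at P0. It was at 23.7, 27.1 and 27.4 TPM at E12.5, 24.0, 25.5 and 24.2 TPM at P0, 22.4, 20.4 and 21.0 TPM at P14, and 33.7, 33.5 and 34.9 TPM at A6m. The P0 and E12.5 libraries overlapped, and the A6m libraries lay above all others. It was 1.60-fold higher at A6m than at P14 (0.66 ± 0.071, adjusted p = 9.93e-05). At P0 the deposited difference from E12.5 was -0.080 (adjusted p = 0.350) and the scaled one 0.19 (adjusted p = 0.00891). At P14 the deposited difference from P0 was -0.20 and the scaled one 0.29, each past the threshold, and the deposited call was lost without P0 replicate 1, 2 or 3, or P14 replicate 2 or 3 (log2 difference -0.22 to -0.17, adjusted p 0.0517 to 0.106).

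Sqle, the squalene epoxidase, and Cyp51, the lanosterol demethylase, did not return to their E12.5 level on the deposited scale. Sqle was at 49.8, 56.3 and 57.4 TPM at E12.5, 39.5, 41.0 and 39.6 TPM at P0, 33.2, 28.2 and 32.4 TPM at P14, and 41.4, 41.2 and 41.4 TPM at A6m, with no overlap between neighbouring ages. It fell at P0 (-0.43, adjusted p = 4.45e-04) and at P14 (-0.35, adjusted p = 0.00244) and rose at A6m (0.39 ± 0.075, adjusted p = 0.00379), while with scaling the P14 call was lost (0.15, adjusted p = 0.05005).

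Cyp51 (chr5:4081145-4104746, minus strand) was at 30.5, 32.9 and 25.7 TPM at E12.5, 12.8, 11.8 and 11.2 TPM at P0, 12.1, 11.6 and 11.3 TPM at P14, and 19.8, 20.8 and 22.2 TPM at A6m. The P14 and P0 libraries overlapped, and those of A6m lay between them and E12.5. Mean TPM was 2.49-fold lower at P0 than at E12.5 (-1.24 ± 0.095, adjusted p = 9.88e-07) and 1.80-fold higher at A6m than at P14 (0.79 ± 0.095, adjusted p = 1.89e-04). Between A6m and E12.5 Sqle was at -0.39 and Cyp51 at -0.48 on the log2 scale as deposited, but at 0.45 and 0.34 with scaling, all past the threshold.

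Dhcr7, a reductase of the last step, was at 16.9, 18.7 and 15.5 TPM at E12.5, 7.33, 6.78 and 7.61 TPM at P0, 8.85, 7.66 and 7.10 TPM at P14, and 11.9, 9.70 and 10.04 TPM at A6m. The E12.5 libraries lay above all others, and the A6m libraries above those of P14. It fell at P0 (-1.13 ± 0.11, adjusted p = 5.56e-06) and rose at A6m (0.38 ± 0.11, adjusted p = 0.0295), a call that was lost without P14 replicate 2 or 3, or A6m replicate 1 or 3 (log2 difference 0.30 to 0.41, adjusted p 0.0563 to 0.119). Against E12.5, A6m was 1.61-fold lower as deposited (adjusted p = 2.10e-04) and did not pass with scaling (0.15, adjusted p = 0.289).

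The other 7 enzymes of the sterol part were higher at A6m than at P14 in 6 cases, the same 6 with scaling. Of all tested genes, 8.78% were higher as deposited and 15.2% with scaling. Msmo1, the methylsterol oxidase, averaged 46.1 ± 2.57 TPM at E12.5, 32.1 ± 2.13 TPM at P0, 40.9 ± 2.58 TPM at P14 and 75.4 ± 7.82 TPM at A6m (SD, n = 3), and was 1.84-fold higher at A6m than at P14 (adjusted p = 6.51e-05) and 1.64-fold higher than at E12.5 (adjusted p = 2.18e-05). Nsdhl, a sterol dehydrogenase, averaged 23.0 ± 0.936 TPM at E12.5, 11.6 ± 0.571 TPM at P0, 11.4 ± 0.339 TPM at P14 and 23.7 ± 2.01 TPM at A6m, and rose 2.08-fold between A6m and P14 (adjusted p = 9.98e-06). Sc5d, the lathosterol oxidase, averaged 19.9 ± 1.98 TPM at E12.5, 14.1 ± 0.831 TPM at P0, 20.5 ± 1.99 TPM at P14 and 32.4 ± 2.30 TPM at A6m. It was higher at P14 than at P0 (0.51, adjusted p = 0.00115) and higher at A6m than at P14 (0.64, adjusted p = 9.24e-04), on both scales.

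Hsd17b7, a ketosterol reductase, averaged 5.54 ± 0.608 TPM at E12.5, 2.89 ± 0.259 TPM at P0, 3.88 ± 0.352 TPM at P14 and 6.00 ± 0.410 TPM at A6m, and was 1.55-fold higher at A6m than at P14 (adjusted p = 0.00562); its rise at P14 over P0 was lost without P0 replicate 1, or P14 replicate 1 or 2 (log2 difference 0.27 to 0.30, adjusted p 0.0707 to 0.0792). Ebp, a sterol isomerase, averaged 14.4 ± 1.60 TPM at E12.5, 9.23 ± 1.14 TPM at P0, 8.72 ± 1.51 TPM at P14 and 13.2 ± 2.02 TPM at A6m, and was 1.52-fold higher at A6m than at P14 (adjusted p = 0.0192), a call lost without P14 replicate 1 or 2, or A6m replicate 2 (log2 difference 0.44 to 0.51, adjusted p 0.0685 to 0.0767). Nsdhl and Ebp lie on the X chromosome, and the ages were not balanced in Xist as stated above. The part of that imbalance in these results was not tested.

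Lss, lanosterol synthase, averaged 9.25 ± 1.10 TPM at E12.5, 6.74 ± 2.17 TPM at P0, 5.47 ± 0.509 TPM at P14 and 9.68 ± 0.561 TPM at A6m, with P0 replicate 2 at 9.22 TPM against 5.78 and 5.21 TPM in the other P0 libraries. Lss was 1.77-fold higher at A6m than at P14 (adjusted p = 0.0111), and its fall at P0 was lost without E12.5 replicate 1 or 2, P0 replicate 1 or 3, P14 replicate 1, 2 or 3, or A6m replicate 1, 2 or 3 (log2 difference -0.44 to -0.29, adjusted p 0.0502 to 0.166). Tm7sf2, a sterol reductase, averaged 8.41 ± 0.325 TPM at E12.5, 5.69 ± 0.502 TPM at P0, 5.38 ± 1.81 TPM at P14 and 7.36 ± 0.900 TPM at A6m, with P14 replicate 2 at 3.42 TPM against 5.72 and 6.999 TPM. Its fall at P0 was lost without E12.5 replicate 1, 2 or 3, or P0 replicate 1, 2 or 3 (log2 difference -0.53 to -0.43, adjusted p 0.0553 to 0.109), and its difference between A6m and P14 (0.43) passed without P14 replicate 3 (log2 difference 0.61, adjusted p = 0.0398). At P0, scaling also removed the falls of Hmgcs1, Pmvk, Lss, Tm7sf2, Msmo1, Ebp and Sc5d.

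**Figure D2:**
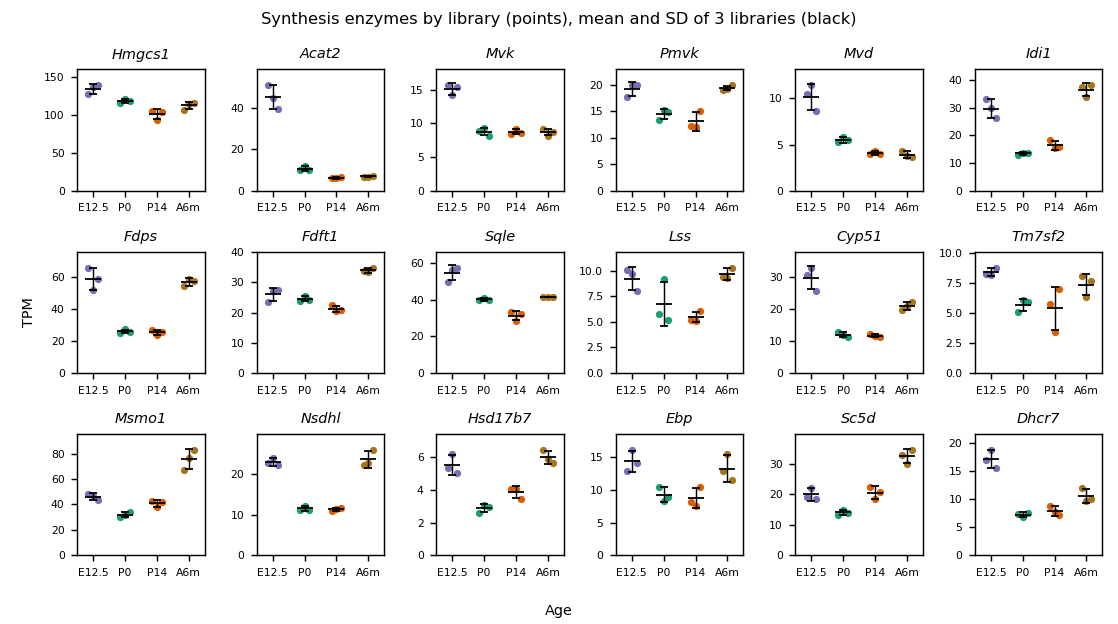
TPM of the 18 synthesis enzymes by library (points) at the 4 ages, with the mean and SD of 3 libraries in black and a linear axis from 0 for each gene. Idi1, Fdps, Msmo1 and Nsdhl have all A6m points above all P14 points, while Acat2 stays near 6 to 7 TPM at both ages and Mvk near 9 TPM.

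Among the 6 regulators, the factor that turns on synthesis and its feedback partner were both higher at 6 months than at P14. Srebf2 was at 28.1, 28.3 and 28.1 TPM at E12.5, 18.5, 15.8 and 16.3 TPM at P0, 21.9, 19.1 and 18.2 TPM at P14, and 26.1, 22.6 and 24.8 TPM at A6m. The E12.5 libraries lay above the others and within 1 TPM of each other, and the A6m libraries lay above those of P14. Srebf2 fell at P0 (-0.71 ± 0.087, adjusted p = 3.54e-05) and rose at A6m over P14 (0.30 ± 0.087, adjusted p = 0.0324), on both scales, with the rise lost without P14 replicate 2 or 3, or A6m replicate 1 or 3 (log2 difference 0.25 to 0.29, adjusted p 0.0946 to 0.124). Its difference between P14 and P0 of 0.21 did not pass (adjusted p = 0.0551), though it did without P0 replicate 1, or P14 replicate 3 (log2 difference 0.27 to 0.28, adjusted p 0.0294 to 0.0415) and with scaling (0.70, adjusted p = 2.72e-04). Between A6m and E12.5 Srebf2 was at -0.20 as deposited (adjusted p = 0.0616), passed without P14 replicate 1, or A6m replicate 1 (log2 difference -0.24 to -0.20, adjusted p 0.0481 to 0.0488), and was higher with scaling (0.63). Scap, the escort protein, averaged 21.3 ± 0.806 TPM at E12.5, 15.2 ± 1.20 TPM at P0, 16.4 ± 2.66 TPM at P14 and 18.6 ± 2.11 TPM at A6m, and fell at P0 (-0.46, adjusted p = 0.00510), a call not made with scaling (-0.19).

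Insig1, the retention protein whose own gene is a target of the Srebf2 product, had the largest rise of the 6 regulators between A6m and P14 (chr5:28071363-28078662, plus strand). It was at 22.5, 19.7 and 20.4 TPM at E12.5, 17.7, 22.2 and 18.9 TPM at P0, 18.1, 16.9 and 18.5 TPM at P14, and 38.4, 33.5 and 46.4 TPM at A6m. The E12.5, P0 and P14 libraries ran from 16.9 to 22.5 TPM, and all A6m libraries lay above them. Mean TPM was 2.21-fold higher at A6m than at P14 (1.09 ± 0.12, adjusted p = 9.75e-05), while P0 and E12.5 did not differ past the threshold (adjusted p = 0.532). Insig2, its paralogue, which is known in mouse liver for a different pattern of control, was at 25.97, 23.9 and 41.2 TPM at E12.5, 49.2, 48.2 and 44.5 TPM at P0, 44.2, 39.5 and 44.2 TPM at P14, and 54.9, 55.6 and 49.96 TPM at A6m. E12.5 replicate 3 lay apart from the other E12.5 libraries and close to the P0 range. Insig2 rose at P0 (0.66 ± 0.16, adjusted p = 0.00394) and did not pass between A6m and P14 (0.32, adjusted p = 0.194), but did without E12.5 replicate 3 (log2 difference 0.32, adjusted p = 0.0101).

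The liver X receptors were measured through Nr1h2 and Nr1h3. Nr1h2, the widely expressed form, was at 34.4, 43.8 and 37.7 TPM at E12.5, 31.4, 34.8 and 29.3 TPM at P0, 25.7, 23.1 and 26.3 TPM at P14, and 31.6, 23.8 and 26.8 TPM at A6m. Its libraries overlapped between P0 and E12.5 and between A6m and P14. Its fall at P14 (-0.34, adjusted p = 0.0296) was lost with scaling (0.16) and without P0 replicate 1 or 2, or P14 replicate 1 or 2 (log2 difference -0.36 to -0.27, adjusted p 0.0524 to 0.109), its difference at P0 (-0.27) passed without E12.5 replicate 1 (log2 difference -0.34, adjusted p = 0.0314), and A6m against E12.5 was lower as deposited (-0.48) and higher with scaling (0.35).

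Nr1h3, the form known from macrophages and liver, was at 1.75, 2.79 and 2.20 TPM at E12.5, 3.53, 3.12 and 3.58 TPM at P0, 2.39, 2.52 and 3.42 TPM at P14, and 5.92, 4.15 and 4.63 TPM at A6m. All A6m libraries lay above those of the other ages, and every library lay under 6 TPM. It rose at P0 (0.45 ± 0.16, adjusted p = 0.0293) and at A6m over P14 (0.64 ± 0.16, adjusted p = 0.0155), and the first call was lost without E12.5 replicate 1 or 3, or P0 replicate 1 or 3 (log2 difference 0.34 to 0.45, adjusted p 0.0616 to 0.0962), the second without P14 replicate 1 or 2, or A6m replicate 1 (log2 difference 0.52 to 0.60, adjusted p 0.0569 to 0.0670). At A6m it was 2.18-fold higher than at E12.5 (adjusted p = 4.39e-04), on both scales. Over the same interval as its A6m rise, 6 of 10 macrophage markers fell, beside 12.1% of all tested genes. The markers had summed TPM of 27.4 to 47.1 at A6m and 54.1 to 56.7 at P14, and no marker of that list was at 0 in all libraries of an age. The part of macrophages in the Nr1h3 values was not tested.

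Of the 5 genes of uptake and handling, 2 rose and 2 fell at P0, beside 18.6% of all tested genes higher and 43.7% lower, so that the share that fell (40%) was near that of all genes. With scaling 3 were higher and 1 lower, beside 29% and 31%. Npc2, the soluble lysosomal carrier of cholesterol (chr12:84754562-84773152, minus strand), was at 39.2, 36.4 and 40.7 TPM at E12.5, 59.7, 60.1 and 58.0 TPM at P0, 60.0, 57.7 and 65.0 TPM at P14, and 96.2, 96.7 and 103 TPM at A6m. The A6m libraries lay above all others and the E12.5 libraries below them. Mean TPM was 1.53-fold higher at P0 than at E12.5 (0.60 ± 0.065, adjusted p = 1.29e-05) and 1.62-fold higher at A6m than at P14 (0.69 ± 0.065, adjusted p = 3.60e-05). Npc1, the membrane protein that takes over from it, was at 19.04, 24.2 and 25.3 TPM at E12.5, 17.2, 18.3 and 17.4 TPM at P0, 12.8, 11.69 and 10.7 TPM at P14, and 14.2, 14.2 and 12.1 TPM at A6m. Its P14 libraries lay below all P0 libraries. Npc1 fell at P0 (-0.35, adjusted p = 0.0189) and at P14 (-0.55, adjusted p = 0.00165), calls not made with scaling (-0.072 and -0.072), and the P0 call was lost without E12.5 replicate 2 or 3, or P0 replicate 1 or 3 (log2 difference -0.34 to -0.27, adjusted p 0.0518 to 0.0704).

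Stard4, a cytosolic sterol carrier whose gene is known as a target of the Srebf2 product, was at 15.9, 13.6 and 18.5 TPM at E12.5, 6.76, 5.18 and 6.27 TPM at P0, 4.34, 3.76 and 3.68 TPM at P14, and 5.69, 4.74 and 6.66 TPM at A6m. Its E12.5 libraries lay above all others, as with Acat2 and Mvd. It was 2.64-fold lower at P0 than at E12.5 (-1.26 ± 0.14, adjusted p = 1.96e-05) and 2.81-fold lower at A6m (adjusted p = 5.28e-06), on both scales. At P14 it fell as deposited relative to P0 (-0.52) and not with scaling (-0.091). At A6m its difference from P14 of 0.44 just missed the threshold (adjusted p = 0.0541), and it passed with scaling (adjusted p = 0.0245) and without E12.5 replicate 2 or 3, or A6m replicate 2 (log2 difference 0.44 to 0.54, adjusted p 0.0360 to 0.0441).

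Soat1, which esterifies cholesterol for storage, was at 20.9, 24.6 and 27.9 TPM at E12.5, 28.6, 27.6 and 25.9 TPM at P0, 20.9, 19.8 and 19.1 TPM at P14, and 32.4, 33.0 and 36.6 TPM at A6m. The A6m libraries lay above those of P14 without overlap. It rose 1.71-fold at A6m over P14 (0.74 ± 0.10, adjusted p = 3.74e-04) and 1.39-fold over E12.5 (adjusted p = 0.00107), on both scales. At P0 it did not pass (0.16), but did without E12.5 replicate 3 (log2 difference 0.26, adjusted p = 0.0293) and with scaling (0.43, adjusted p = 2.03e-04), and its fall at P14 (-0.44, adjusted p = 0.00301) was not called with scaling (0.057). Lrp1, an endocytic receptor for particles with apolipoprotein E, averaged 63.2 ± 13.4 TPM at E12.5, 93.1 ± 5.72 TPM at P0, 57.5 ± 11.0 TPM at P14 and 53.7 ± 5.59 TPM at A6m (SD, n = 3). It rose at P0 (0.57 ± 0.16, adjusted p = 0.0102), on both scales, and fell at P14 as deposited (-0.70, adjusted p = 0.00393) but not with scaling (-0.19). Its difference between A6m and E12.5 of -0.21 did not pass, but did without E12.5 replicate 1 (log2 difference -0.39, adjusted p = 0.0282), and with scaling it was higher at A6m (0.63, adjusted p = 8.18e-04).

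All 3 efflux genes rose by birth, on both scales (18.6% of all tested genes were higher as deposited and 29% with scaling), while 17 of 18 synthesis enzymes fell as deposited and 10 with scaling. Apoe, the apolipoprotein of brain lipoproteins, was the most abundant of the 32 genes at every age. It was at 449, 682 and 543 TPM at E12.5, 2076, 2119.7 and 2049.9 TPM at P0, 1929.8, 2212 and 2112 TPM at P14, and 2912, 2859.6 and 2945 TPM at A6m. The E12.5 libraries lay far below the rest, and the A6m libraries lay above all others. Mean TPM was 3.73-fold higher at P0 than at E12.5 (log2 difference 1.92 ± 0.12, adjusted p = 2.65e-07) and 5.21-fold higher at A6m than at E12.5 (2.40 ± 0.12, adjusted p = 1.30e-08). Between A6m and P14 it was 1.39-fold higher (0.48 ± 0.12, adjusted p = 0.0175), a call lost without P14 replicate 1, or A6m replicate 1 or 3 (log2 difference 0.43 to 0.48, adjusted p 0.0526 to 0.0698). Between P14 and P0 the libraries overlapped as deposited (adjusted p = 1.00), and the scaled values were higher at P14 (0.52, adjusted p = 0.00381). Apoe transcripts made up 0.0449% to 0.0682% of all TPM at E12.5, 0.205% to 0.212% at P0, 0.193% to 0.221% at P14 and 0.286% to 0.294% at A6m.

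Abca1, the transporter that loads cholesterol onto lipid-poor apolipoproteins, peaked at birth (chr4:53030787-53159895, minus strand). It was at 26.5, 38.7 and 38.0 TPM at E12.5, 64.5, 57.6 and 56.3 TPM at P0, 30.9, 26.2 and 25.5 TPM at P14, and 22.2, 20.6 and 20.5 TPM at A6m. All P0 libraries lay above those of every other age, and the A6m libraries below those of every other age. Mean TPM was 1.73-fold higher at P0 than at E12.5 (0.79 ± 0.13, adjusted p = 3.73e-04) and 2.16-fold lower at P14 than at P0 (-1.09 ± 0.13, adjusted p = 8.10e-05), on both scales. At A6m its difference from P14 (-0.36, adjusted p = 0.0811) passed with scaling (-0.32, adjusted p = 0.0216) and without E12.5 replicate 1 (log2 difference -0.36, adjusted p = 0.00860). Relative to E12.5 it was lower at A6m as deposited (-0.66, adjusted p = 8.43e-04) and did not pass with scaling (0.16).

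Abcg1, which hands cholesterol to larger lipoprotein particles, was at 4.24, 5.69 and 5.29 TPM at E12.5, 15.9, 12.8 and 14.1 TPM at P0, 12.4, 10.3 and 10.9 TPM at P14, and 11.5, 10.9 and 10.7 TPM at A6m. The E12.5 libraries lay below all others. It was 2.82-fold higher at P0 than at E12.5 (1.33 ± 0.11, adjusted p = 2.38e-06) and 2.17-fold higher at A6m than at E12.5 (adjusted p = 1.01e-05), on both scales, and A6m and P14 overlapped (adjusted p = 0.942). Its fall at P14 (-0.32, adjusted p = 0.0318) was lost with scaling (0.16) and without P0 replicate 1 or 3, or P14 replicate 2 or 3 (log2 difference -0.33 to -0.25, adjusted p 0.0668 to 0.120).

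Scaling changed further calls. At P14 against P0 it added higher calls for Pmvk (0.34, log2 difference), Fdps (0.46), Cyp51 (0.45), Nsdhl (0.45), Dhcr7 (0.56), Scap (0.58), Insig1 (0.37) and Npc2 (0.54). At A6m against E12.5 it added higher calls for Pmvk (0.83), Lss (0.83), Tm7sf2 (0.58), Nsdhl (0.86), Hsd17b7 (0.82), Ebp (0.68) and Scap (0.62), and it ended the falls of Mvk (-0.73 as deposited, 0.051 with scaling) and Npc1 (-0.71 as deposited, 0.10 with scaling).

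**Figure D3:**
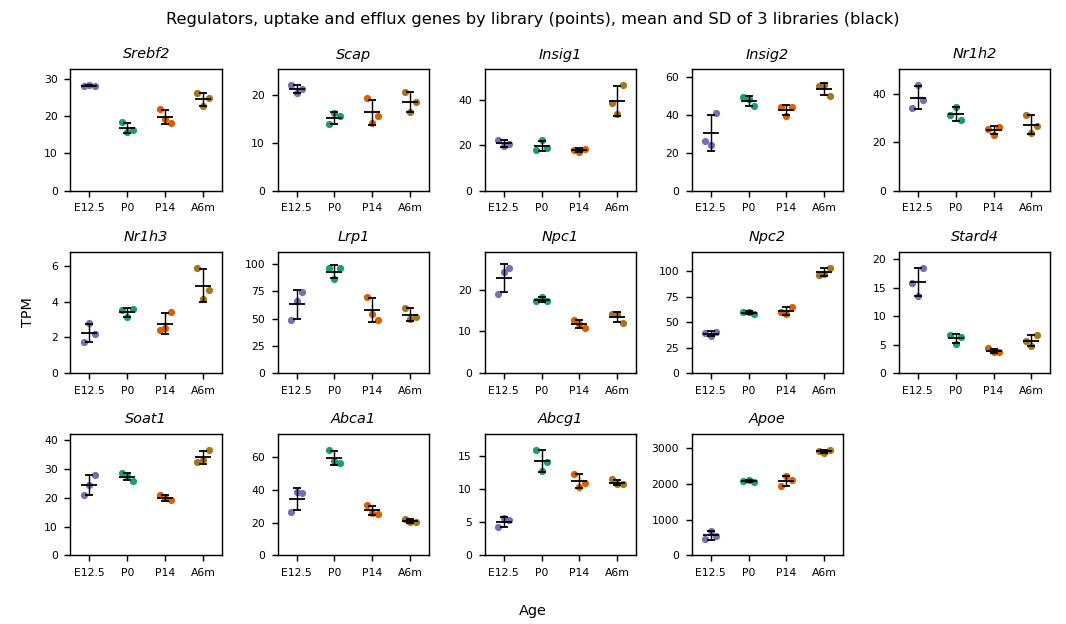
TPM of the 6 regulators, 5 uptake and handling genes and 3 efflux genes by library (points) at the 4 ages, with the mean and SD of 3 libraries in black and a linear axis from 0 for each gene. Apoe and Npc2 step up at birth and again at A6m, Abca1 is highest at P0, and Insig1 leaves its earlier range only at A6m.

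Ratios between partner genes within a library do not change when the library is divided by 1 factor, as in median-of-ratios scaling. Quantile normalization can change them. They are given here as a description. Abca1 over Abcg1 was 6.25 to 7.18 in the E12.5 libraries, 3.98 to 4.51 at P0, 2.34 to 2.53 at P14 and 1.90 to 1.93 at A6m, with no overlap between ages. Npc2 over Npc1 was 1.51 to 2.06 at E12.5, 3.28 to 3.47 at P0, 4.71 to 6.06 at P14 and 6.79 to 8.53 at A6m, again with no overlap. Nr1h2 over Nr1h3 was 15.7 to 19.6 at E12.5, 8.19 to 11.2 at P0, 7.67 to 10.7 at P14 and 5.34 to 5.79 at A6m, with P0 and P14 overlapping. Insig1 over Insig2 was 0.496 to 0.865 at E12.5, 0.360 to 0.461 at P0, 0.409 to 0.429 at P14 and 0.603 to 0.929 at A6m, so that E12.5 and A6m overlapped above P0 and P14.

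**Figure D4:**
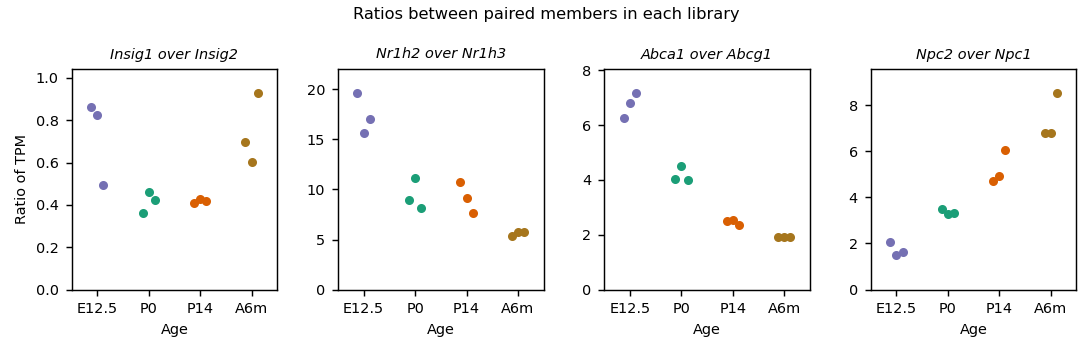
Ratio of TPM between partner genes in each of the 12 libraries (points) at the 4 ages, on linear axes from 0. Abca1 over Abcg1 steps down at each age and Npc2 over Npc1 steps up, without overlap between ages.

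Levels within the set kept their leaders while the middle ranks changed. Apoe was first and Hmgcs1 the next at all 4 ages. Fdps was ranked 4 of 32 at E12.5, stood at rank 11 at P0, rank 9 at P14 and rank 5 at A6m. Acat2 was ranked 28 at A6m and 7 at E12.5, Insig1 was ranked 9 at A6m and 20 at E12.5, and Abca1 was ranked 17 at A6m and 10 at E12.5. Ranks are by mean TPM, and neighbours in rank often differed by less than the SD of 3 libraries.

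**Figure D5:**
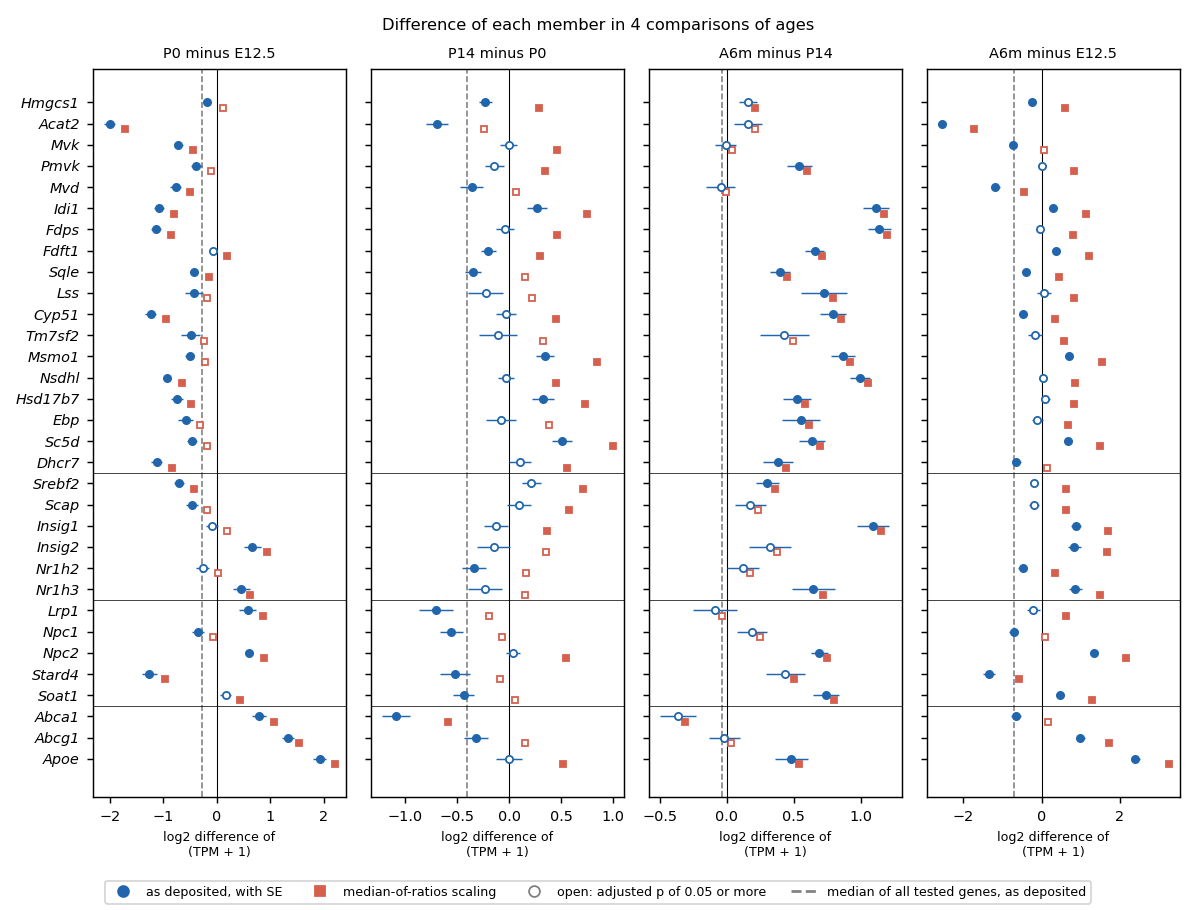
Log2 difference of log2(TPM + 1) for each of the 32 genes in 4 comparisons of ages, as deposited (circles, with SE) and after median-of-ratios scaling (squares). Filled symbols have an adjusted p under 0.05 and dashed lines give the median of all tested genes as deposited. Between A6m and P14 both scales nearly coincide and most symbols lie to the right of 0, while between P14 and P0 and between A6m and E12.5 the squares lie to the right of the circles.

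A further 44 genes of the pathway that are not among the 32 were listed for comparison, of which 41 were tested. At P0 against E12.5, 14 of them rose (34.1%, with 18.6% of all tested genes) and 12 fell (29.3%, with 43.7%). At P14 against P0, 5 rose (12.2%, with 5.33%) and 23 fell, a share of 56.1% that was near the 53.5% of all tested genes. At A6m, 12 rose over P14 (29.3%, with 8.78%) and 3 fell (7.32%, with 12.1%), while 14 rose over E12.5 (34.1%, with 15.2%) and 20 fell (48.8%, with 62%). With scaling, 20 were higher and 7 lower at P0 against E12.5 (29% and 31% of all tested genes), 16 and 8 at P14 against P0 (22.7% and 19.8%), 16 and 5 at A6m against P14 (15.2% and 14%), and 26 and 9 at A6m against E12.5 (35.4% and 35.8%). The largest rise was that of Clu, clusterin, an apolipoprotein of cerebrospinal fluid, at 2086 ± 33.1 TPM at A6m against 160.4 ± 19.6 TPM at E12.5 (log2 difference 3.70 ± 0.083, adjusted p = 5.96e-11). Apod, apolipoprotein D, was at 195 ± 79.1 TPM at A6m and 40.2 ± 11.2 TPM at P14 (2.20 ± 0.31, adjusted p = 5.74e-04).

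Among receptors, Vldlr, which binds apolipoprotein E, was at 92.5 ± 2.41 TPM at P0 and 20.2 ± 7.90 TPM at E12.5 (adjusted p = 3.44e-06). Lrp2, or megalin, was at 0.410 ± 0.0684 TPM at A6m and 13.7 ± 0.796 TPM at E12.5 (adjusted p = 5.38e-10). Cyp39a1 and Cyp7b1, which hydroxylate oxysterols, each rose at P0. Cyp39a1 was then at 4.87 ± 0.390 TPM at P14 against 26.7 ± 1.08 TPM at P0 (adjusted p = 4.29e-07), and Cyp7b1 was at 19.1 ± 2.17 TPM at P0 against 6.34 ± 1.60 TPM at E12.5 (adjusted p = 4.64e-06).

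Genes that handle the sterol sensor and stored esters also differed between ages. Erlin1, a protein of the complex that degrades sterol-regulated enzymes, was at 5.91 ± 0.525 TPM at A6m against 30.9 ± 0.971 TPM at E12.5 (adjusted p = 4.23e-09). Nceh1, which hydrolyses cholesterol esters, was at 19.1 ± 0.820 TPM at A6m against 2.69 ± 0.921 TPM at E12.5 (adjusted p = 5.92e-08). Gramd1b, a carrier of cholesterol from the plasma membrane, was at 39.8 ± 0.594 TPM at A6m against 10.7 ± 2.84 TPM at E12.5 (adjusted p = 3.88e-07). Among the branches that leave the pathway before squalene, Pdss1, of coenzyme Q synthesis, fell at A6m against E12.5 on both scales (-1.10, adjusted p = 4.43e-05), and Dhdds, of dolichol synthesis, fell as deposited (-0.65, adjusted p = 1.60e-04) but not with scaling (0.17).

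Cell type markers moved with the same comparisons. Their counts are as deposited. Of all tested genes, 18.6% were higher and 43.7% lower at P0 against E12.5. These shares were 5.33% and 53.5% at P14 against P0, and 8.78% and 12.1% at A6m against P14. In bulk tissue, fewer cells of a type and less RNA per cell cannot be told apart. At P0 against E12.5, 9 of 10 choroid plexus epithelium markers rose and 6 of 6 proliferation markers fell. Epithelial markers summed to 148710.0 to 150377 TPM at P0 and 12867 to 23757 TPM at E12.5, and proliferation markers to 97.0 to 99.3 TPM at P0 and 737 to 796 TPM at E12.5. Most of the epithelial sum was 1 marker, Ttr, at 141192 to 143164 TPM at P0 and 11200 to 21003 TPM at E12.5. In the same comparison 5 of 6 erythroid markers fell, with sums of 6645 to 13491 TPM at P0 and 20562 to 27119 TPM at E12.5, and 6 of 7 endothelial markers fell, with sums of 219 to 300.0 TPM at P0 and 401 to 442 TPM at E12.5. Of 5 astrocyte markers, 4 rose and 1 fell at P0, with a median log2 difference of 2.34 and sums of 67.7 to 106 TPM at P0 and 48.5 to 86.8 TPM at E12.5. Of the 10 macrophage markers 4 fell, and of 6 mural and 6 tested fibroblast markers 2 of each rose while 3 mural and 4 fibroblast markers fell. At P14 against P0, 3 epithelial markers rose and 4 fell, with sums of 179742 to 195038 TPM at P14 and 148710.0 to 150377 TPM at P0. These sums mainly follow Ttr, at 151576 to 168699 TPM at P14, and Enpp2, at 21280 to 24038 TPM at P14 and 2992 to 3211 TPM at P0. There, 6 of 6 proliferation, 6 of 6 erythroid, 7 of 7 endothelial, 10 of 10 macrophage and 5 of 6 tested fibroblast markers fell, and 3 of 5 tested oligodendrocyte markers rose. Erythroid markers then summed to 771 to 901 TPM at P14, against 6645 to 13491 TPM at P0. At A6m against P14, 2 epithelial markers rose and 1 fell, while 7 of 7 endothelial, 5 of 6 mural and 4 of 6 tested fibroblast markers fell. The endothelial sum was 26.2 to 41.3 TPM at A6m and 85.1 to 113 TPM at P14, the mural sum 13.8 to 23.5 TPM at A6m and 77.9 to 109 TPM at P14, and the fibroblast sum 166 to 237 TPM at A6m and 264 to 309 TPM at P14, with the fibroblast marker Dpt at 0 in all A6m libraries. Oligodendrocytes, which make much cholesterol for myelin, had 3 of 5 tested markers lower at A6m than at P14, with sums of 26.6 to 32.3 TPM at A6m and 39.7 to 77.8 TPM at P14. With scaling, the median log2 difference of epithelial markers at P14 against P0 was 0.32, against -0.19 as deposited. The mural median at P0 against E12.5 was 0.13, against -0.15. Mural, neuron and astrocyte medians at P14 against P0 also turned positive. Proliferation, erythroid, endothelial, macrophage and fibroblast medians stayed negative in each of these comparisons. The part of these cell type shifts in the results for cholesterol genes was not tested.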

How the data were processed

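The deposited values are TPM, which the authors computed with kallisto on GRCm38, per the submitters' processing notes. Neither the annotation release nor the way gene values were formed is given in the sources used here. Of the table's sample columns, 12 matched the 4 ages and 7 were not used. TPM were tested as log2(TPM + 1) for the 17422 genes with TPM of at least 1 in at least 3 of 12 libraries, with limma 3.58.1 in R 4.3.3 (eBayes with trend, 4 group means, 8 residual degrees of freedom) and Benjamini-Hochberg adjustment over all tested genes. Every adjusted p is from limma. The fit was tested on simulated data. Log2 differences are on the log2(TPM + 1) scale, which understates changes of low genes, and folds are ratios of mean TPM.

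Scaling used medians of ratios over the 19075 genes above 0 in all libraries. Other alternatives were quantile normalization, a filter at a mean of 5 TPM or none at all, a pseudocount of 0.1 or 5, rescaling that leaves out the 10 most abundant genes or the small-RNA features (10 as planned; a set of 14 was chosen after seeing the data), only the 6 libraries of a comparison, array quality weights, a replicate block, limma treat against 1.5-fold, and each library left out. The 32 genes, the pathway and marker lists and the tests were chosen with earlier results of these data known. Genes given in every library are those with the largest absolute difference in each role (6 for synthesis, 4 for other roles) and those called in opposite directions on both scales; pathway genes named are up to 2 per group with the largest called difference and a mean of at least 5 TPM, except 1 that is not reported here. Gene positions are from GENCODE M21, promoter windows from RefSeq. Python 3.11.15 with matplotlib 3.10.9 drew the figures.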

Additional observations from a re-analysis of the deposited data

How the results depend on the processing

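How libraries are put on a common scale decided more of the directions than any other choice. With median-of-ratios scaling 39 of the 128 log2 differences (32 genes in 4 comparisons) changed sign, of which 30 passed the test on at least 1 of the scales, and those are given here. Between P0 and E12.5 these were Hmgcs1 at 0.10 and Fdft1 at 0.19. Between P14 and P0 they were Hmgcs1 at 0.28, Mvk 0.46, Pmvk 0.34, Mvd 0.066, Fdps 0.46, Fdft1 0.29, Sqle 0.15, Cyp51 0.45, Nsdhl 0.45, Insig1 0.37, Nr1h2 0.16, Soat1 0.057, Abcg1 0.16 and Apoe 0.52. Between A6m and E12.5 they were Hmgcs1 at 0.60, Mvk 0.051, Fdps 0.80, Sqle 0.45, Cyp51 0.34, Tm7sf2 0.58, Ebp 0.68, Dhcr7 0.15, Srebf2 0.63, Scap 0.62, Nr1h2 0.35, Lrp1 0.63, Npc1 0.10 and Abca1 0.16. With quantile normalization 36 changed sign, 28 of them past the threshold with or without it: Fdft1 at 0.20 between P0 and E12.5; Hmgcs1 at 0.026, Mvk 0.48, Pmvk 0.30, Mvd 0.18, Fdps 0.36, Fdft1 0.20, Sqle 0.016, Cyp51 0.43, Nsdhl 0.44, Ebp 0.42, Nr1h2 0.051, Stard4 0.012, Abcg1 0.14 and Apoe 0.49 between P14 and P0; and Hmgcs1 at 0.15, Mvk 0.071, Fdps 0.50, Sqle 0.17, Cyp51 0.19, Tm7sf2 0.69, Ebp 0.66, Dhcr7 0.14, Srebf2 0.47, Scap 0.52, Nr1h2 0.14, Lrp1 0.31 and Npc1 0.016 between A6m and E12.5. Rescaling without the 10 most abundant genes changed 22 signs, 7 of them past the threshold in either form, with Hmgcs1 at 0.11 and Fdft1 at 0.21 between P0 and E12.5, and Hmgcs1 at 0.23, Fdps 0.44, Sqle 0.087, Srebf2 0.27 and Scap 0.27 between A6m and E12.5. Between A6m and P14 the signs that changed under these 3 alternatives belonged to genes past the threshold in neither form (Mvk and Abcg1 with scaling, Mvk and Mvd with quantile normalization, and none in the third). Under the other alternatives, single libraries left out included, signs changed likewise for differences past the threshold in neither form alone. By construction the first and second remove the downward drift of most genes.

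The counts of genes moved as follows. Between P0 and E12.5, 12 genes were lower with scaling, 13 with quantile normalization and 11 without the 10 most abundant genes. Between P14 and P0, 17, 16 and 8 genes were higher and 1, 2 and 5 lower under the same alternatives in that order. Between A6m and E12.5, 25, 23 and 19 were higher and 3, 2 and 5 lower. Of all tested genes, quantile normalization gave 29.7% higher and 31.9% lower at P0 over E12.5, 20.2% and 19.5% at P14 over P0, and 36% and 35.8% at A6m over E12.5; without the 10 most abundant genes these were 27.6% and 28.8%, 9.31% and 37.4%, and 24.1% and 45.5%. Between A6m and P14, 1 gene, Abca1, was called lower under each of the 3, with only the 6 libraries of the comparison, with array quality weights, without E12.5 replicate 1 and without the 14 features of ribosomal and small RNA, and the counts without each library in turn ran from 0 to 1. Of all tested genes, 13.3% to 18.6% were lower under the alternatives that called Abca1, and 8.26% to 15.3% without each library in turn. Against a 1.5-fold difference (limma treat), 2 rose and 7 fell at P0 (7.08% and 15.8% of all tested genes), 0 rose and 1 fell at P14 (1.03% and 8.3%), 4 rose at A6m over P14 (1.19%), and 4 rose and 3 fell at A6m over E12.5 (8.02% and 40.4%). Leaving out each library in turn gave 2 to 4 genes higher between P14 and P0, with 2 without P14 replicate 1. The share of all tested genes that were higher then ran from 4.31%, without P14 replicate 1, to 6.12%. Same-numbered libraries of different ages did not deviate together (correlations of -0.064 to 0.072), so the numbers do not pair them. With the replicate number as a block, 7 rose and 20 fell at P0 (18.2% and 42.5% of all tested genes), and 5 rose and 9 fell at P14 (5.16% and 51.6%). With that block, 20 rose at A6m over P14 (7.71%), and 11 rose and 12 fell at A6m over E12.5 (15% and 61.5%). Pseudocounts of 0.1 and 5, no filter and a mean of at least 5 TPM kept each count within 1.5 times. With no read depth in the values, precision at low TPM, as for Nr1h3 and Hsd17b7, is judged from the spread between libraries, pooled over the 4 ages.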
